A study of Mus musculus with 16 samples.

Results

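Prostaglandin synthesis and turnover was followed through 10 genes: Pla2g4a, Ptgs1, Ptgs2, Ptges, Ptges2, Ptges3, Ptger2, Ptger4, Slco2a1 and Hpgd. They were chosen by name as the route from membrane lipid to prostaglandin E2, its signal and its removal, and each was matched to 1 of the 49585 rows of the count table through its Ensembl identifier. Transcripts were measured by RNA sequencing of epidermis from hairless SKH-1 mice aged 8 to 12 weeks, with 4 libraries in each of 4 groups. The control groups are labelled K5Cre, a Cre recombinase named for the keratin 5 promoter of basal keratinocytes, and came without exposure or from 6 h after ultraviolet B (UVB) at 100 mJ/cm2. The other groups had an epidermal knockout of the transcription factor C/EBPβ, unexposed or 6 h after the same dose, and the labels do not state which Cre or which Cebpb allele these mice carried. All epidermis was separated by heat shock, and the labels do not say whether libraries of a group came from separate mice, so the p-values speak only for the spread among these samples, which may be technical.

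Prostaglandins are short-lived lipid signals. Cytosolic phospholipase A2 frees arachidonic acid from membranes, the cyclooxygenases convert it to prostaglandin H2, and terminal synthases turn that into prostaglandin E2, which acts on nearby cells through EP receptors. The signal ends when the transporter encoded by Slco2a1 takes the lipid up and 15-hydroxyprostaglandin dehydrogenase, encoded by Hpgd, oxidizes it. In skin, prostaglandin E2 is known for its part in sunburn erythema, and Ptgs2, the inducible cyclooxygenase, for its induction by UVB in keratinocytes.

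The promoters of 3 members are shown because these genes carry the main contrasts in transcript level: Ptgs2 had the largest UVB response of the members, Ptgs1 is its constitutive counterpart, and Slco2a1 was the member that differed between genotypes. Sequences are from RefSeq (GRCm38.p6), run 5′ to 3′ on the plus strand, which is the coding strand of all 3, and cover 250 bases before to 50 bases after the annotated start. All 10 members had an entry, Pla2g4a with a pair of starts, giving 11 windows. Capitals mark a C/EBP motif, a cAMP response element half-site or an E-box.
Ptgs2, chr1:150099781-150100080: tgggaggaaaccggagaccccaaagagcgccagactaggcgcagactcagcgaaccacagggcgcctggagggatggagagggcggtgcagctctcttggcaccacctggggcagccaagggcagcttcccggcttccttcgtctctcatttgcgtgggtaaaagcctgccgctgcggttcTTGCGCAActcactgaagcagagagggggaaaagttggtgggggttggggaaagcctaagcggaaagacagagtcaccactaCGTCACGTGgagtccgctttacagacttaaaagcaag
Ptgs1, chr2:36230176-36230475: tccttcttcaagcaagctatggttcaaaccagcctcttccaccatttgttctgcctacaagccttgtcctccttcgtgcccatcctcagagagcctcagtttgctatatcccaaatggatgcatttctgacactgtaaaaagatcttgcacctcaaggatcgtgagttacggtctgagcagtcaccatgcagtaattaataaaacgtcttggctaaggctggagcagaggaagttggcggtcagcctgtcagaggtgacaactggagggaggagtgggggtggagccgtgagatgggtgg
Slco2a1, chr9:103008237-103008536: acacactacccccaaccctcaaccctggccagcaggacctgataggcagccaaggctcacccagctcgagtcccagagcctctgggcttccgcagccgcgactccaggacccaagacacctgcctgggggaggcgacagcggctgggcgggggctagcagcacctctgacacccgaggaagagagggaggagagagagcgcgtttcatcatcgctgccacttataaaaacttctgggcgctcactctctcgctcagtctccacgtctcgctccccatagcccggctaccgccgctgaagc

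Both strands of every window were searched. The C/EBP motif TTGCNNAA was found in the windows of 2 of the 10 members, Ptgs2 and Ptger2, and in 10.8% of the 32851 promoter windows of the table. The Ptgs2 match, from base -69 to base -62 counted from the annotated start, is the palindrome TTGCGCAA, which 60 windows (0.183%) held. A half-site, CGTCA, lay from base 14 to base 18 of Ptgs2 and overlapped the E-box CACGTG from base 17 to base 22. The half-site was found in 20.8% of all windows and the E-box in 7.15%. Of the other members, Ptges3 held the half-site and Ptges2 the E-box. The Ptgs1 and Slco2a1 windows held no C/EBP, half-site or E-box match, and Slco2a1 held TATAAA from base -29 to base -24, a motif also found in Hpgd and in 1 window of Pla2g4a, and in 13.6% of all windows. An NF-kappaB motif, GGG and CC held apart by any 5 bases, was also in the Ptgs2 window, from base -23 to base -14, in those of Ptgs1 (base 28 to base 37), Ptges, Ptges3 and Ptger4, and in 50.8% of all windows. The RefSeq start used for Slco2a1 lies inside the gene as GENCODE draws it, which begins at position 102988712. A match is a string of letters, and neither binding nor the place where transcription starts was measured here.

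**Figure D1:**
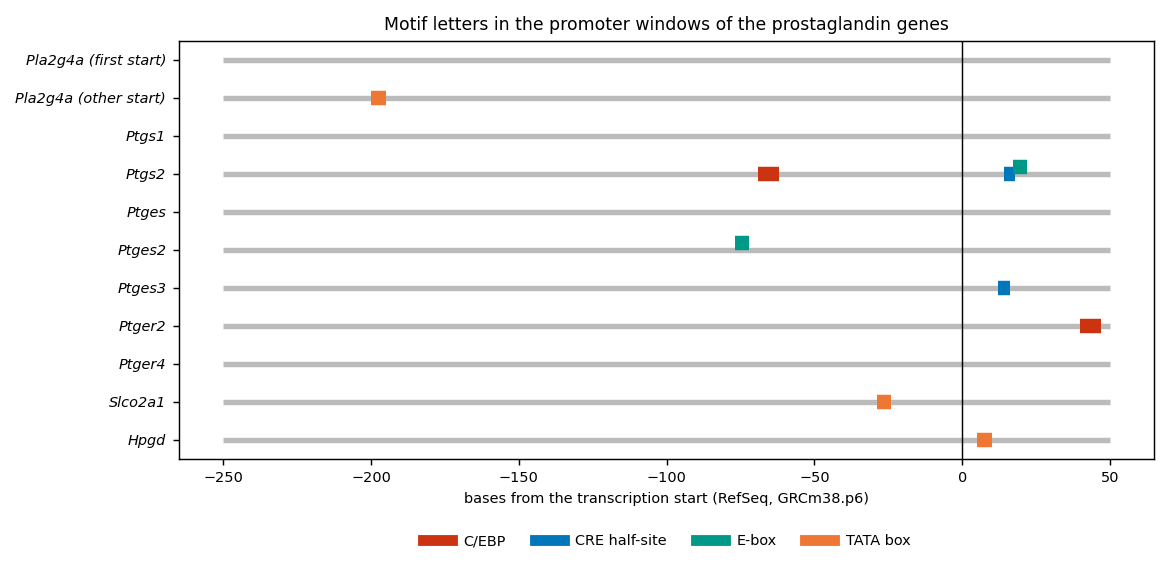
Matches to the C/EBP, CRE half-site, E-box and TATA motifs in the 11 promoter windows of the members, as coloured blocks on grey bars, with bases from the RefSeq start on the horizontal axis. Ptgs2 holds a C/EBP match from base -69 to base -62 and overlapping half-site and E-box matches after the annotated start, and Ptgs1 holds none of these motifs.

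The 16 libraries held 33.0 to 53.3 M counts, and all 10 members were among the 17741 genes that passed the filter on low counts. Levels are given as CPM, the count scaled to the library's total after trimmed-mean normalization. Cebpb, the targeted gene, averaged 166 CPM ± 13.7 (SD, n = 4) in unexposed and 291 CPM ± 28.6 (SD, n = 4) in exposed controls, and no knockout library was above 3.03 CPM. Keratinocyte markers dominated every library, with 35701 to 71896 CPM summed over 11 markers. Epidermis is a mixture of cell types, and in such bulk samples fewer cells of a type and less RNA per cell cannot be told apart.

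Levels of different members are compared only as CPM per kilobase of exon. The length is that of all annotated exons of a gene merged, such as 13545 bases for Slco2a1 and 6391 for Pla2g4a, and the order depends on it. In unexposed controls Ptgs1, the constitutive cyclooxygenase, stood highest at 80.7 CPM per kilobase, followed by Ptges, the inducible microsomal prostaglandin E synthase, at 34.9 and Ptges3, the cytosolic synthase and p23 co-chaperone, at 22.6. Pla2g4a, the phospholipase that frees arachidonic acid, stood at 7.40 CPM per kilobase, and the libraries of these 4 genes did not overlap in this order. Slco2a1, Hpgd, Ptger4 and Ptges2, the other microsomal synthase, lay between 1.70 and 3.17 CPM per kilobase, and neighbours among them overlapped. Ptgs2 and the EP2 receptor gene Ptger2 came last, at 0.113 and 0.0142 CPM per kilobase. After UVB the Ptges level, 71.7 CPM per kilobase in controls and 79.7 in knockouts, overlapped that of Ptgs1, at 60.6 and 81.1. Ptgs2 moved from next to last to a place among the middle members, at 3.0 CPM per kilobase in controls, where it overlapped Pla2g4a and Slco2a1, and at 5.97 in knockouts.

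**Figure D2:**
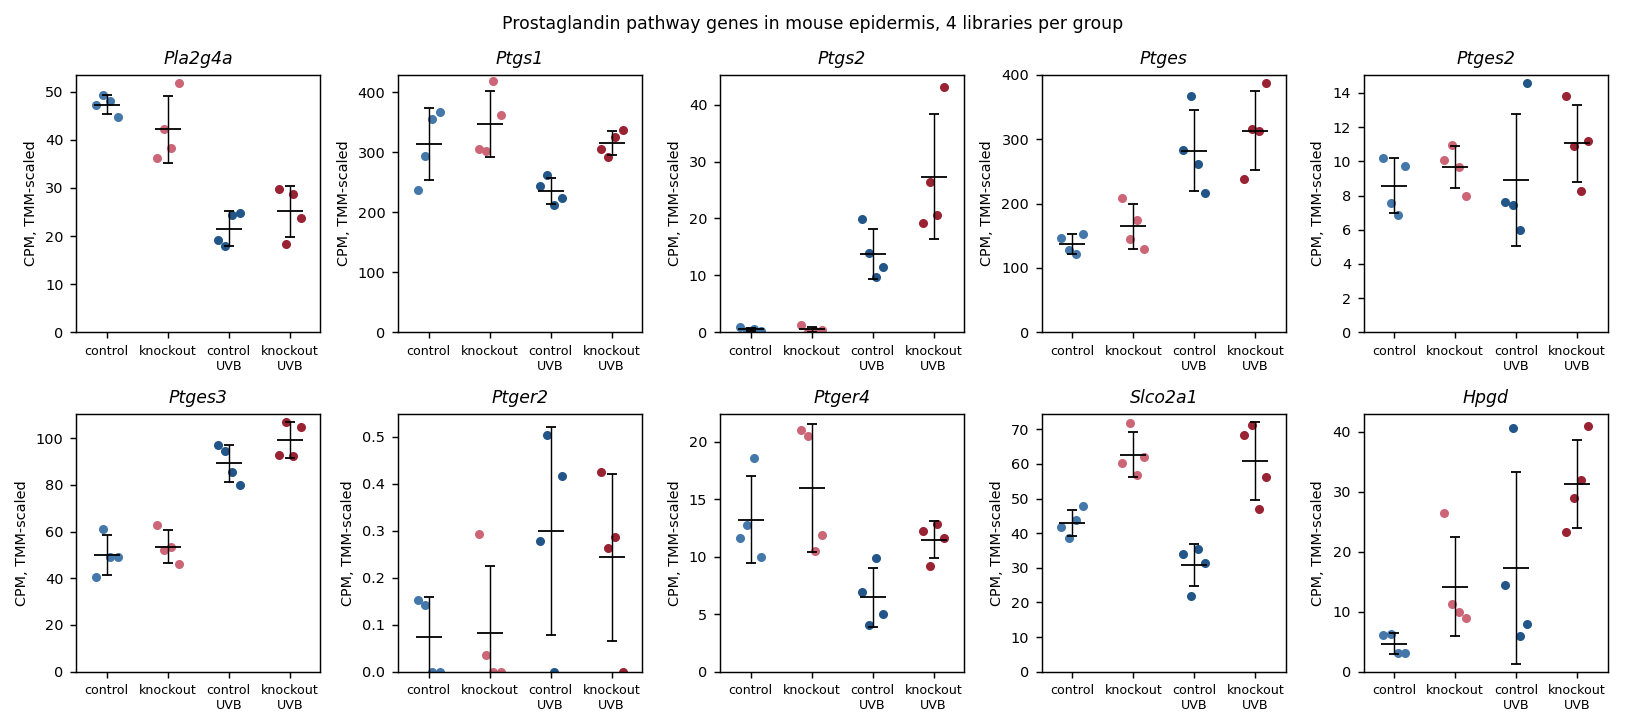
Level of each member as TMM-scaled CPM on linear axes that start at 0, with 1 point per library, 4 libraries per group, and bars for the mean ± SD; groups without UVB in their name are unexposed. Ptgs2 lies at or under 1.24 CPM in every unexposed library and at or above 9.68 CPM in every exposed one, and all exposed knockout libraries of Slco2a1 lie above all exposed control libraries.

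UVB changed members at every step of the route in controls, and fewer members passed in knockouts. Such counts do not test a difference between genotypes, and the direct test given further below called no member. In controls 4 members rose (Ptgs2, Ptges, Ptges3 and Hpgd) and 4 fell (Ptgs1, Pla2g4a, Ptger4 and Slco2a1) at an adjusted p under 0.05. The background was high, with 35.8% of all tested genes called and 17.7% called higher. In knockouts 3 members rose (Ptgs2, Ptges and Ptges3) and 1 fell (Pla2g4a), beside 32.2% of all tested genes called and 18.1% called higher. The exposed and unexposed libraries did not overlap for 6 of the 10 members in controls and for 4 in knockouts, beside 33.8% and 35.8% of all tested genes. The members' median log2 fold change was 0.44 in controls and 0.54 in knockouts, against -0.02 and 0.01 over all genes tested. These medians are midpoints of a gap between Ptges2, at 0.05 and 0.19, and Ptges3, at 0.83 and 0.89, and describe no single member. All adjusted p-values in the text are from edgeR's quasi-likelihood test with Benjamini-Hochberg adjustment over all tested genes, unless another tool is named.

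Pla2g4a, on the minus strand of chromosome 1 (149829618 to 149961290, GRCm38), had 47.3, 49.3, 48.0 and 44.7 CPM in the unexposed control libraries and 19.1, 17.9, 24.4 and 24.9 CPM in the exposed ones. In knockouts it had 36.2, 42.2, 38.3 and 51.9 CPM unexposed and 29.8, 18.3, 28.7 and 23.8 CPM after UVB. Every exposed library was below every unexposed library of its genotype. The log2 fold change was -1.13 (SE 0.16, adjusted p = 1.65e-05) in controls and -0.75 (SE 0.16, adjusted p = 0.00117) in knockouts. Ptgs2 is the next protein-coding gene along the chromosome, on the plus strand (150100031 to 150108227), 138.7 kilobases away, so these neighbours moved in opposite directions after UVB.

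Ptgs2 was nearly silent without UVB, with 0.92, 0.19, 0.67 and 0.29 CPM in control libraries and 1.24, 0.11, 0.32 and 0.37 CPM in knockout libraries. These levels rest on 6 to 76 reads per library. After UVB the control libraries held 19.9, 14, 9.68 and 11.4 CPM and the knockout libraries 19.2, 26.3, 20.7 and 43.1 CPM. Exposed and unexposed libraries were far apart in both genotypes, while the exposed groups overlapped through knockout library 1. The rise was 26.8-fold in controls (log2 4.74, SE 0.62, adjusted p = 2.4e-05) and 51.9-fold in knockouts (log2 5.70, SE 0.64, adjusted p = 7.73e-06). Unexposed knockout library 1, with the highest unexposed level, weighed on the second value, which was 6.72 on the log2 scale without it.

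Ptgs1, on chromosome 2 (36230426 to 36252272, plus strand), had 237, 293, 356 and 367 CPM in unexposed control libraries and 243, 263, 212 and 224 CPM after UVB. The ranges overlapped, because the lowest unexposed library lay among the exposed ones. The fall in controls (log2 -0.41, SE 0.14, adjusted p = 0.027) lost its call when unexposed control library 3 or 4 or exposed control library 3 or 4 was left out (adjusted p = 0.0875, 0.104, 0.0802 and 0.0575). In knockouts Ptgs1 had 305, 301, 419 and 362 CPM unexposed and 305, 292, 325 and 337 CPM after UVB, a log2 fold change of -0.14 (adjusted p = 0.519). Per kilobase, Ptgs2 made up 0.0544% to 0.328% of the summed cyclooxygenase level in unexposed controls and 0.0299% to 0.343% in unexposed knockouts. After UVB its share was 3.73% to 6.49% in controls and 5.06% to 9.78% in knockouts, so Ptgs1 remained the more abundant cyclooxygenase transcript in all 16 libraries.

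Among the terminal synthases, Ptges and Ptges3 rose and Ptges2 did not pass the test. Ptges, the synthase usually coupled to Ptgs2, had 147, 127, 122 and 154 CPM in unexposed and 283, 367, 261 and 217 CPM in exposed control libraries. In knockouts its libraries held 209, 145, 175 and 129 CPM unexposed and 237, 316, 312 and 387 CPM after UVB. The groups did not overlap in either genotype, and the rise was 2.05-fold in controls (log2 1.04, SE 0.18, adjusted p = 9.05e-05) and 1.90-fold in knockouts (log2 0.93, SE 0.17, adjusted p = 0.000307). Ptges3 had 40.6, 61.2, 49.1 and 49.3 CPM in unexposed and 97.0, 94.5, 85.4 and 79.9 CPM in exposed control libraries. Its knockout libraries held 62.9, 51.9, 53.3 and 46.2 CPM unexposed and 92.6, 107, 92.4 and 105 CPM after UVB. It too was apart in both genotypes, with a log2 fold change of 0.83 in controls (SE 0.13, adjusted p = 4.77e-05) and 0.89 in knockouts (SE 0.13, adjusted p = 3.09e-05). A processed pseudogene, Ptges3-ps, had 439 counts in all 16 libraries together, and how reads that match both it and Ptges3 were counted is not known. Ptges2 stayed between 6.00 and 14.6 CPM in all 16 libraries, with log2 fold changes of 0.05 in controls and 0.19 in knockouts (adjusted p = 0.896 and 0.629).

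The EP4 receptor gene Ptger4, which signals through cAMP, had 11.6, 12.8, 18.6 and 9.98 CPM in unexposed and 6.90, 4.07, 9.86 and 4.97 CPM in exposed control libraries. The groups lay just apart, and the fall in controls was 2.05-fold (log2 -1.03, SE 0.28, adjusted p = 0.00642). In knockouts Ptger4 had 21.0, 20.5, 10.5 and 11.9 CPM unexposed and 12.2, 9.16, 12.8 and 11.7 CPM after UVB, with overlap and a log2 fold change of -0.48 (adjusted p = 0.211). Ptger4 shares 82 exon bases with Ttc33 on the opposite strand. The sources used here do not give the strand setting of the counting, so reads from these bases may have been lost or assigned to the wrong gene. Ptger2, the EP2 receptor gene, was at the edge of detection: 16 libraries together gave 128 counts, 6 libraries gave 0, and 3 counts correspond to 0.049 to 0.104 CPM. Its highest level was 0.50 CPM, its exons overlap the antisense gene Gm17173 by 246 bases, and no comparison of it passed the test (adjusted p from 0.38 upward after UVB).

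Both genes of prostaglandin removal moved in controls, in opposite directions. Slco2a1 had 41.8, 38.5, 43.8 and 47.8 CPM in unexposed and 34.0, 21.9, 35.6 and 31.5 CPM in exposed control libraries, without overlap. The fall was small (log2 -0.48, SE 0.16, adjusted p = 0.0195) and its call was lost without unexposed control library 4 (adjusted p = 0.0613). Hpgd, on chromosome 8 (56294585 to 56321043, plus strand), had 6.14, 6.29, 3.15 and 3.11 CPM in unexposed and 14.4, 40.6, 5.97 and 7.89 CPM in exposed control libraries. The groups overlapped and exposed library 2 stood far above the rest. The rise was 3.69-fold with it (log2 1.88, SE 0.57, adjusted p = 0.0189), and without it the log2 value was 0.95 (adjusted p = 0.079). The call was also lost without unexposed control library 3 or 4 (adjusted p = 0.0621 and 0.0591). In knockouts Hpgd had 26.5, 11.4, 9.90 and 9.0 CPM unexposed and 23.4, 29.0, 31.9 and 41.0 CPM after UVB. The log2 fold change of 1.14 did not pass in the main edgeR fit (SE 0.55, adjusted p = 0.141). It passed in 3 of 15 alternatives, among them limma voom (adjusted p = 0.0196). Markers of infiltrating cells moved with UVB as well. Of 5 tested neutrophil markers 3 rose in controls and 2 in knockouts, and the list summed to 67.6 to 230 CPM without and 672 to 1092 CPM with UVB in control libraries, and to 90.8 to 190 and 309 to 571 CPM in knockout libraries. Nearly all of this was S100a8 and S100a9, which keratinocytes also make, while the neutrophil-specific Ly6g averaged at most 0.023 CPM in any group. Of 5 tested monocyte or macrophage markers 2 rose in controls and 1 in knockouts, and their sum went from 17.4 to 26.5 CPM to 39.4 to 62.7 CPM in control libraries and from 31.2 to 38.1 CPM to 50.3 to 58.2 CPM in knockout libraries. The part of these cells in the members' UVB responses was not tested.

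**Figure D3:**
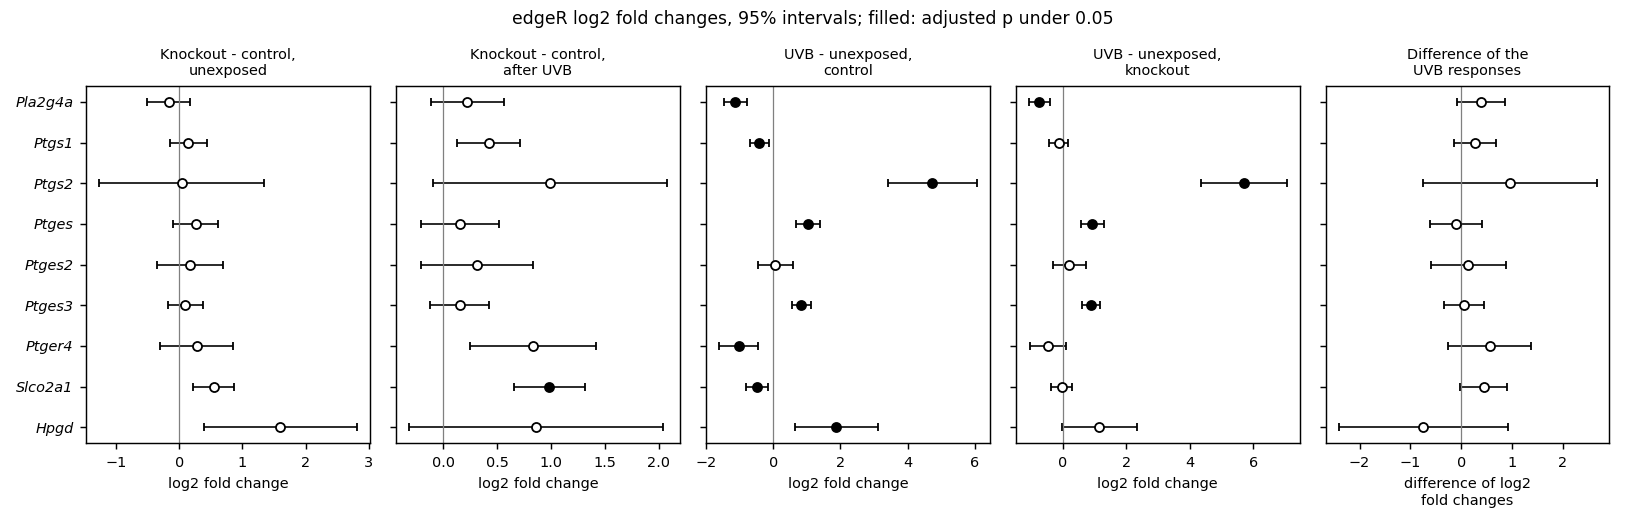
Log2 fold change of 9 members in the 4 comparisons and the difference of the UVB responses, 1 panel each with its own scale, with bars for the 95% interval and filled points for an adjusted p under 0.05. Ptger2 is left out for its low counts; Ptgs2 lies at 4.74 and 5.70 in the UVB panels, and Slco2a1 after UVB is the only filled point of the 2 genotype panels.

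Without UVB no member passed the test between knockout and control, beside 2.10% of all genes tested. At an unadjusted p under 0.05 there were 2 members, Hpgd and Slco2a1, beside 12.4% of all tested genes. DESeq2 called 1 member (Slco2a1) and 4.18% of all genes, and limma voom 0 members and 2.50% of all genes. Hpgd was 3.04-fold higher in knockouts (log2 1.60, SE 0.56, 95% interval 0.39 to 2.82, adjusted p = 0.209), and all 4 knockout libraries lay above all 4 control libraries. Slco2a1 had 60.3, 71.7, 56.7 and 62.0 CPM in unexposed knockout libraries, all above the control libraries (log2 0.54, SE 0.16, 95% interval 0.22 to 0.87, adjusted p = 0.0783). Such separation with knockouts higher was found for 4.64% of all tested genes. When the 8 unexposed libraries were fitted alone, both genes passed, with adjusted p = 0.0376 for Hpgd and 0.0213 for Slco2a1, beside 3.44% of the genes in that fit. Ptgs2 averaged 0.517 CPM ± 0.339 in controls and 0.511 CPM ± 0.50 in knockouts (SD, n = 4 each), with a log2 difference of 0.04 and a 95% interval from -1.27 to 1.34. That value rested on knockout library 1 and control library 1: without the first it was -0.99 and without the second 0.51.

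After UVB 1 member differed between genotypes, beside 4.68% of all tested genes and 2.36% called higher in knockouts: Slco2a1, the importer that clears prostaglandins from the extracellular space, was higher in knockouts. Its exposed knockout libraries held 68.3, 71.3, 47.0 and 56.3 CPM against 34.0, 21.9, 35.6 and 31.5 CPM in exposed controls. No library overlapped, and the difference was 1.98-fold (log2 0.98, SE 0.16, 95% interval 0.65 to 1.31, adjusted p = 0.00109). This comparison and the UVB comparison in controls share the exposed control libraries. In knockouts Slco2a1 averaged 62.7 CPM ± 6.41 unexposed and 60.7 CPM ± 11.2 exposed (SD, n = 4 each), a log2 fold change of -0.05 (adjusted p = 0.874).

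Other members were higher in exposed knockouts in mean without passing. Ptgs1 was the other member without overlap, with a log2 difference of 0.42 (SE 0.14, 95% interval 0.12 to 0.71, adjusted p = 0.0909). Non-overlap with knockouts higher was found for 2 members, and for 6.47% of all tested genes. Ptger4 differed by 0.83 on the log2 scale (SE 0.28, 95% interval 0.25 to 1.41, adjusted p = 0.0916). Ptgs2 averaged 27.3 CPM ± 11 in knockouts and 13.8 CPM ± 4.46 in controls (SD, n = 4 each), a log2 difference of 0.99 (SE 0.51, 95% interval -0.10 to 2.07, adjusted p = 0.297) that passed with limma voom (adjusted p = 0.048), which called 4.66% of all genes. Hpgd averaged 31.3 CPM ± 7.36 in knockouts and 17.2 CPM ± 16 in controls (SD, n = 4 each; adjusted p = 0.419). Leaving out exposed control library 2 gave a call for Hpgd (adjusted p = 0.0193) and leaving out library 3 one for Ptger4 (adjusted p = 0.0399). Of all tested genes, 7.37% were called without library 2 and 2.86% without library 3, against 4.68% with all libraries. The members' median log2 difference was 0.36, against 0.04 over all genes tested.

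Slco2a1 is known from endothelium as well as from epithelia, and markers of other cell types also moved with genotype. Of 6 endothelial markers 3 were tested, and Flt1, a receptor for vascular endothelial growth factor, was higher in knockouts both unexposed (log2 1.28, adjusted p = 0.0176) and after UVB (log2 1.52, adjusted p = 0.00363). Without UVB the summed level of the list was 21.5 to 29.5 CPM in control libraries against 50.3 to 77.2 CPM in knockout libraries, and after UVB it was 9.0 to 25.2 against 28.4 to 48.4 CPM. Most of this was Flt1: the defining markers Cdh5 and Kdr were at or near 0, with group means of at most 0.027 and 0.232 CPM, and Pecam1 averaged 2.29 CPM in exposed controls and 0.977 CPM in exposed knockouts. The median log2 difference of the 3 tested markers was 1.28 without UVB and -1.22 after it.

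Of 8 Langerhans cell markers, 2 were higher in unexposed knockouts and 5 in exposed knockouts, and their summed level without UVB was 588 to 770 CPM in control against 646 to 946 CPM in knockout libraries, and after UVB 680 to 849 against 858 to 1072 CPM. Of 6 tested fibroblast markers 1, Postn, was higher in knockouts and 5 did not pass. Without UVB the list summed to 43.1 to 81.7 CPM in control against 105.5 to 353.5 CPM in knockout libraries. After UVB it summed to 18.7 to 40.7 against 96.1 to 118.9 CPM. The median log2 difference of the 6 tested markers was 1.998 without UVB and 0.287 after it. In controls the sum fell with UVB, while the median log2 fold change of these markers was 1.31. The sum therefore does not stand for the fibroblast list as a whole. Of the 11 keratinocyte markers, 2 were higher and 1 lower in exposed knockouts and 8 did not pass. The basal keratinocyte genes Krt5 (log2 1.14, adjusted p = 0.00641) and Itga6 (log2 0.60, adjusted p = 0.0106) were higher, and Lor, which encodes the cornified envelope protein loricrin, was lower (log2 -0.91, adjusted p = 0.0105). Krt14, another basal gene, was 2.83-fold higher in unexposed knockouts (adjusted p = 0.0466) and did not pass after UVB (log2 1.27, adjusted p = 0.0593). It was the only 1 of the 11 called without UVB, and Krt15 and Trp63 passed in neither comparison. The list's median log2 difference was 0.03 without UVB and 0.18 after it. Its sum was 45290 to 58496 CPM in control against 40120 to 51211 CPM in knockout libraries without UVB. After UVB it was 36743 to 71896 against 35701 to 51589 CPM. Cd207, which encodes the langerin of Langerhans cells, averaged 24.04 CPM in exposed controls and 40.95 CPM in exposed knockouts (log2 0.77, adjusted p = 0.1). Of 5 tested monocyte or macrophage markers 1, Csf1r, was higher in knockouts with and without UVB, and the summed levels given above did not overlap between unexposed genotypes. Of 5 tested neutrophil markers 1 was higher in unexposed knockouts, where the summed levels of the genotypes overlapped. None of the 5 passed between exposed genotypes, where the summed level was lower in knockouts without overlap. The part of these cell types in the Slco2a1 difference was not tested.

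Library measures also moved with genotype after UVB. Mitochondrial genes held 8.57%, 5.24%, 9.59% and 9.65% of counts in exposed control libraries and 5.44% to 5.99% in exposed knockout libraries. At equal depth the exposed control libraries had 16975 to 19307 genes detected, against 19177 to 21550 for the exposed knockout libraries. In the same order, the exposed control libraries held 34.0, 21.9, 35.6 and 31.5 CPM of Slco2a1. The part of these library measures in the Slco2a1 difference was not tested.

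**Figure D4:**
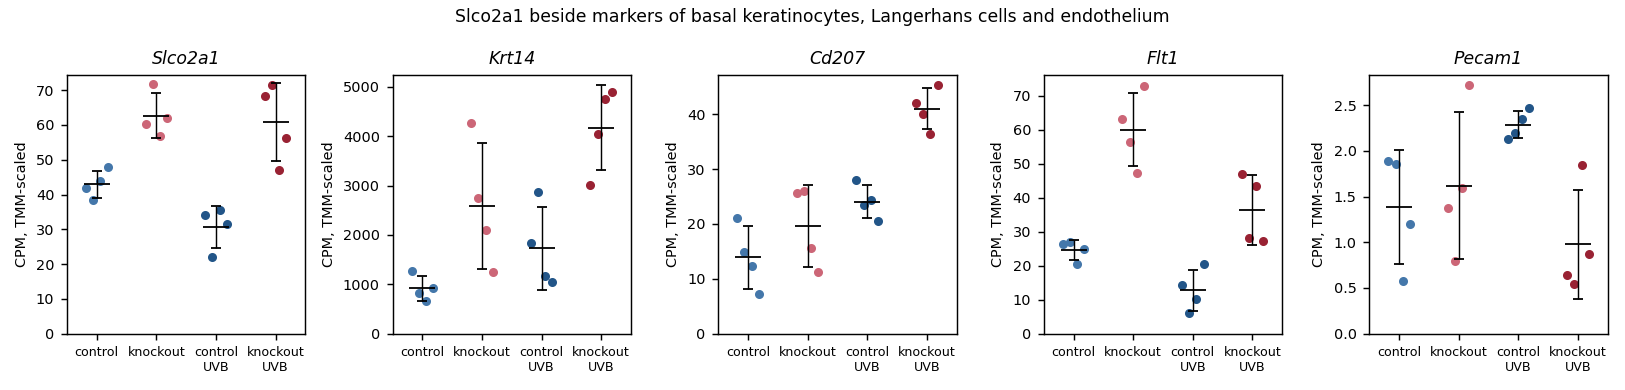
Level in TMM-scaled CPM of Slco2a1 and of the markers Krt14, Cd207, Flt1 and Pecam1, 1 panel per gene, with 1 point per library, 4 libraries per group, and bars for the mean ± SD; groups without UVB in their name are unexposed. Flt1 and Krt14 are higher in knockouts in mean with and without UVB, as Slco2a1 is, while the mean of Pecam1 is 2.29 CPM in exposed controls and 0.977 CPM in exposed knockouts.

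The UVB response itself was not shown to differ between genotypes for any member. The difference of responses was called for 0 of the 17741 genes by edgeR (0%), where 1043 (5.88%) had an unadjusted p under 0.05 and no member was among them, and for 31 genes by DESeq2, no member among them. The largest estimate in size was that of Ptgs2, 0.95 on the log2 scale (95% interval -0.75 to 2.66, adjusted p = 0.93), so neither an equal response nor one 4-fold larger in knockouts lies outside it. It was 1.98 without unexposed knockout library 1 and 0.48 without unexposed control library 1. For Slco2a1 the difference was 0.44 (95% interval -0.02 to 0.90, adjusted p = 0.855) and for Pla2g4a 0.39 (95% interval -0.09 to 0.86, adjusted p = 0.893). The intervals were narrower for Ptges, -0.62 to 0.40, and Ptges3, -0.33 to 0.44.

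Of 52 wider eicosanoid genes in 5 lists, 43 were tested. UVB raised 10 and lowered 7 in controls, and raised 11 and lowered 6 in knockouts, with 10 raised in both genotypes and 4 lowered in both. These 17 of 43 in each genotype stood near the share of all tested genes called, 35.8% in controls and 32.2% in knockouts. Pla2g4e, a phospholipase of the cytosolic group that acts as an N-acyltransferase, rose from 96.4 to 625 CPM in controls (log2 2.70, SE 0.18, adjusted p = 2.36e-09) and from 103 to 497 CPM in knockouts (log2 2.27, SE 0.18, adjusted p = 3.05e-08). The transporter gene Slco4a1 rose by 2.09 on the log2 scale in controls and 1.44 in knockouts (adjusted p = 9.18e-07 and 5.48e-05). Hpgds, the hematopoietic prostaglandin D synthase, rose from 42.9 to 105 CPM in controls (log2 1.29, SE 0.19, adjusted p = 2.51e-05). Abcc4, which exports prostaglandins, fell from 51.2 to 27.0 CPM in controls (log2 -0.93, SE 0.14, adjusted p = 2.82e-05) and by 1.03 on the log2 scale in knockouts (adjusted p = 1.13e-05). Faah, which degrades fatty acid amides, fell by 0.95 in controls (adjusted p = 4.31e-05). In knockouts the reductase gene Akr1b8 rose by 1.72 and Pla2g7, encoding an enzyme that inactivates platelet-activating factor, fell by 1.04 on the log2 scale (adjusted p = 1.75e-04 and 1.59e-04). Akr1b8 and Hpgds were among the genes raised in both genotypes, and Faah was among those lowered in both.

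By list, the other prostanoid synthases gave 4 risen and 0 fallen of 9 tested in both genotypes, where 17.7% of all tested genes rose in controls and 18.1% in knockouts. Those risen were Hpgds and the reductase genes Akr1b8, Cbr1 and Cbr3, while Ptgds, Ptgis and Tbxas1 averaged at most 0.673 CPM in any group. The count therefore does not stand for synthases as a class. The other phospholipases A2 gave 3 risen and 3 fallen of 15 in controls, and 3 and 2 in knockouts. Inactivation and export gave 1 risen and 3 fallen of 5 in controls, and 1 and 2 in knockouts. Arachidonate supply and recycling gave 1 risen and 1 fallen of 9 in controls, and 2 and 1 in knockouts, and the other receptors gave 1 risen and 0 fallen of 5 in controls, and 1 and 1 in knockouts. Between genotypes 1 of the 43 was called in unexposed mice, beside 2.10% of all tested genes: Pla2g4d was higher in knockouts (log2 2.20, SE 0.49, adjusted p = 0.0305). After UVB 2 of the 43 were called, beside 4.68% of all tested genes: Akr1b3, an aldose reductase, was higher in knockouts (log2 1.44, adjusted p = 0.0429) and Pla2g7 was lower (log2 -1.21, SE 0.18, adjusted p = 0.000649).

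**Figure D5:**
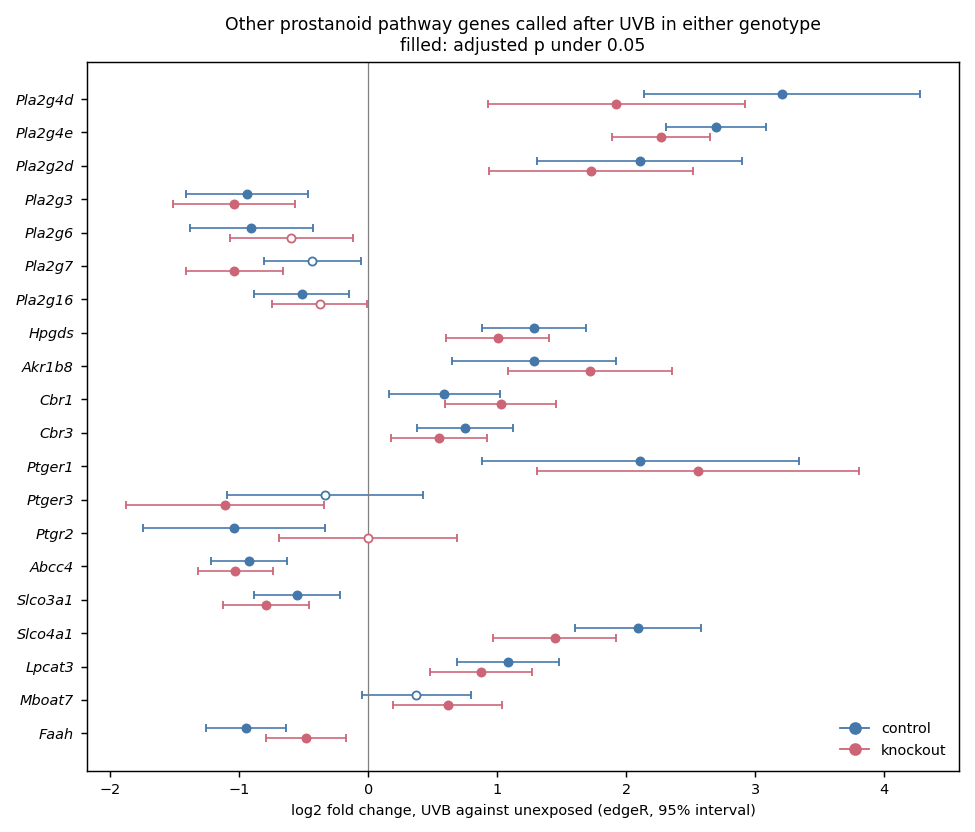
UVB response of the 20 wider eicosanoid genes called in either genotype, 1 gene per row, as log2 fold change with its 95% interval, controls in blue and knockouts in red, and filled points for an adjusted p under 0.05. Pla2g4d lies at 3.20 in controls and 1.92 in knockouts.

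Over the 16 libraries, the genes with the pattern most like each called member were found by the root mean square difference of centred log2 CPM. For Ptgs2 they were Sprr2k (0.52), Gm7993 and Dio2, against a standard deviation of 2.31 for Ptgs2 itself. For Slco2a1 they were Col23a1 (0.25), Tbc1d4 and Mllt6, against 0.48. For Hpgd they were BC100530 (0.36), Slfn2 and BC117090, against 1.18. Ptges was nearest to Atp11b (0.12), Pfdn2 and Emc3, and Ptges3 to Snrnp40 (0.13), Slc38a2 and Ppp4r1. Pla2g4a was nearest to Myo9a (0.12), Dapp1 and Rnf216, Ptgs1 to Picalm (0.17), Fam76b and Irak4, and Ptger4 to Herc3 (0.32), Tgfbr1 and Parp8. These are descriptions of likeness over shared libraries and depths.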

How the data were processed

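The authors deposited raw counts per Ensembl gene for 16 libraries, made from total RNA of mouse epidermis with a directional kit per the labels' protocols. The submitters' processing notes name FastQC, STAR, HTSeq and DESeq2. The sources used here do not give versions, the genome build or the strand setting of the counting. Symbols, coordinates and exon lengths came from GENCODE M21 (GRCm38), and 49326 of 49585 rows had a symbol.

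The model for the counts was edgeR's robust quasi-likelihood fit (edgeR 4.0.16, R 4.3.3) of 4 group means over all 16 libraries, after filterByExpr left 17741 genes and TMM scaling. F tests were two-sided, with Benjamini-Hochberg adjustment and a threshold of 0.05. The SE was the size of the log2 fold change over the square root of F. The common biological coefficient of variation was 0.445. The steps were tested on simulated data. The alternatives were other scalings and filters, DESeq2 1.42.0, limma 3.58.1 (voom), a fit to only the groups compared, and each library left out. Likeness used log2(CPM + 0.5) over tested genes averaging 1 CPM or more. Figures were drawn with matplotlib 3.10.9 in Python 3.11.15, and tables were handled with pandas 2.3.3.

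The members, lists and tests were chosen with earlier results of these data known. Named genes were the 10 members, Cebpb, up to 5 called genes of the wider lists with the smallest p per comparison, and the 3 genes most like each called member. Markers, overlapping loci and other genes named beside them were chosen after their values were seen.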

Additional observations from a re-analysis of the deposited data

Results flagged for a closer look

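In unexposed knockouts, library 1 stood apart from the other 3 libraries for Hpgd, at 26.5 CPM against 9.0 to 11.4 CPM. The same library stood apart for Ptger2, at 0.294 CPM, where the level rests on 18 counts and the others held 2, 0 and 0. Each gap was larger than Dixon's 95% critical value for 4 samples, taken as a share of the group's range. Of the 40 sets of a member and a group examined, 2 were flagged in this way, and chance flags about 1 in 20.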

How the results depend on the processing

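Each of the 50 results on a member (10 genes in 5 comparisons) was recomputed under 13 to 22 alternatives, and 41 kept their side of the threshold in every one that gave a value, 31 of them with their direction as well. Of 13 calls, 10 were kept in every alternative run, and no called result changed sign. The 10 results that changed sign were not called on either side. Between unexposed genotypes the log2 value of Ptgs2 was -0.20 with limma voom and -0.99 to 0.51 with 1 library left out, and that of Ptger2 -0.047 and -2.28 to 0.81. With 1 library left out, Ptger2 between exposed genotypes ran from -0.73 to 0.13 and Slco2a1 after UVB in knockouts from -0.13 to 0.058. Ptges2 after UVB in controls was -0.017 without a filter, -0.073 with limma voom and -0.29 to 0.20 with 1 library left out. For the difference of responses, Ptges3 was -0.0053 with relative log expression scaling and -0.0058 with DESeq2, and leaving out 1 library gave -0.054 to 0.15 for Ptges3, -0.26 to 0.050 for Ptges, -0.052 to 0.43 for Ptges2, -1.07 to 0.14 for Hpgd and -1.10 to 1.98 for Ptger2. The calls not kept were the UVB calls of Ptgs1, Slco2a1 and Hpgd in controls. There the count of 8 members called ranged from 5 to 8 when 1 library was left out. It was 5 without unexposed control library 4 and 6 without library 3, where 30.3% and 29.9% of all tested genes were called. Such fits called 29.8% to 35.2% of all tested genes, against 35.8% with all libraries. Slco2a1 after UVB was called in all of its alternatives, with log2 differences from 0.87 to 1.09. Between unexposed genotypes the count of 0 became 1 with DESeq2 and 2 in the fit to only those groups, and was 0 with every library left out in turn. After UVB the count of 1 became 2 with limma voom, and ranged from 1 to 2 when 1 library was left out. It was 2 without exposed control library 2 or 3, where 7.37% and 2.86% of all tested genes were called. In knockouts the count of 4 members called after UVB ranged from 4 to 5. Fits with 1 library left out called 25.2% to 30% of all tested genes there and limma voom 35.4%, against 32.2% in the main fit. The cause of these changes was not tested, and a fit that leaves out a library also has fewer samples. Ptger2 gave no value where a filter removed it. No paired analysis was possible because the labels carry no replicate numbers. Depth limits Ptger2 throughout and Ptgs2 without UVB.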
